A study of Homo sapiens with 27 samples.

Results

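The DEAD and DEAH box RNA helicases were taken as every gene whose platform symbol begins with DDX or DHX and a digit, with 4 genes (DDX58, DDX60, DHX58 and Y-linked DDX3Y) left out by the rule. Only probe sets annotated to 1 gene were used, and the probe set with the highest mean over all arrays stood for its gene. This gave 50 genes of the 18132 with a probe set of their own, carried by 131 of 49395 probe sets. Of the 50, 46 passed the filter on low signal, against 12390 of all genes. DDX4, DDX25, DDX47 and DDX53 did not pass it. The names do not hold 1 function only: DDX11 is a DNA helicase and DDX11L2 a transcribed pseudogene.

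These proteins use ATP to change the fold or the partners of RNA. DEAD box enzymes, named for a run of amino acids in their ATP-binding core, clamp onto an RNA and pry a short duplex open, while DEAH box enzymes travel along the strand and are often switched on by partners with a G-patch domain. In growing cancer cells they are best known for making ribosomes in the nucleolus, for driving the spliceosome through its cycle, and for exporting, translating and storing mRNA.

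The study hybridised RNA of 3 human cancer cell lines to 27 arrays, 3 to each of 9 groups, which the labels call biological replicates. EBC-1 (a non-small cell lung cancer line) and MKN-45 (a gastric cancer line) are described as addicted to the receptor tyrosine kinase MET; HCC827, also from non-small cell lung cancer, has active c-Met but is described as not dependent on it and served as the negative control. Each line was treated with SGX-523, which blocks the kinase activity of MET, for 24 h or for 48 h at 1 uM, and control cells with DMSO. How long the control cells were kept in DMSO is not labelled, and both times of a line share the same 3 DMSO arrays and are not independent of each other. EPCAM, KRT8 and KRT18 were above the array median on every array of all 3 lines. CDH1 was below it on all 9 EBC-1 arrays, where the fibroblast marker LUM was above it, so the epithelial label of EBC-1 rests on the other 3 markers. The fibroblast markers COL1A1 and COL1A2 were below it on every array. PDGFRB was at or above it on 8 EBC-1, 5 MKN-45 and 9 HCC827 arrays. Among endothelial markers, CDH5 was below it on every array and PECAM1 reached it on 1 HCC827 array only. VWF was at or above it on 9 EBC-1, 8 MKN-45 and 3 HCC827 arrays. The leukocyte markers PTPRC and CD3E were below it on every array, while CD68 was above it on all 9 HCC827 arrays and all 9 EBC-1 arrays.

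Values are the deposited log2 signals, which ran between 1.87 and 14.38; precision is limited by the number of arrays. Array medians lay between 5.71 and 5.73 in HCC827 and between 5.02 and 5.14 in EBC-1 and MKN-45, so levels were not compared between HCC827 and the other lines. Replicate 3 of HCC827 at 24 h correlated at 0.962 to 0.967 with the other HCC827 arrays. It stood apart, and its spread enters the shared error of every comparison. Below, differences are log2 values, SGX-523 minus DMSO unless said otherwise, each ± its SE, from 3 arrays in either group (n = 3). A gene is called, and said to have risen or fallen, where limma gave it an adjusted p under 0.05 (Benjamini-Hochberg, 12390 genes). Array values are listed in the order of replicates 1 to 3.

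More helicase genes fell than rose in EBC-1 and MKN-45, the lines described as dependent on MET. The same held in HCC827 at 48 h, where 15 fell and 3 rose, beside 10.7% of all genes lower and 11.6% higher. In EBC-1 at 24 h, 29 of 46 fell and 6 rose, where 59.2% of all genes tested were called, 28% lower and 31.2% higher. At 48 h, 27 fell and 6 rose, beside 61.6% of all genes (28.9% lower and 32.7% higher). The helicases thus fell in 63% and 58.7% of cases, and their medians were -0.33 at 24 h and -0.26 at 48 h, against 0.04 and 0.07 over all genes.

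In MKN-45 the split was more even. At 24 h, 22 of 46 fell and 13 rose, beside 60.3% of all genes called (26.9% lower and 33.4% higher). At 48 h, 18 fell and 15 rose, beside 62.6% (26.2% lower and 36.4% higher). The medians were -0.20 and -0.14, against 0.05 and 0.06 over all genes. The overall share of helicases called, 76.1% at 24 h and 71.7% at 48 h in either line, lay above these backgrounds.

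**Figure D1:**
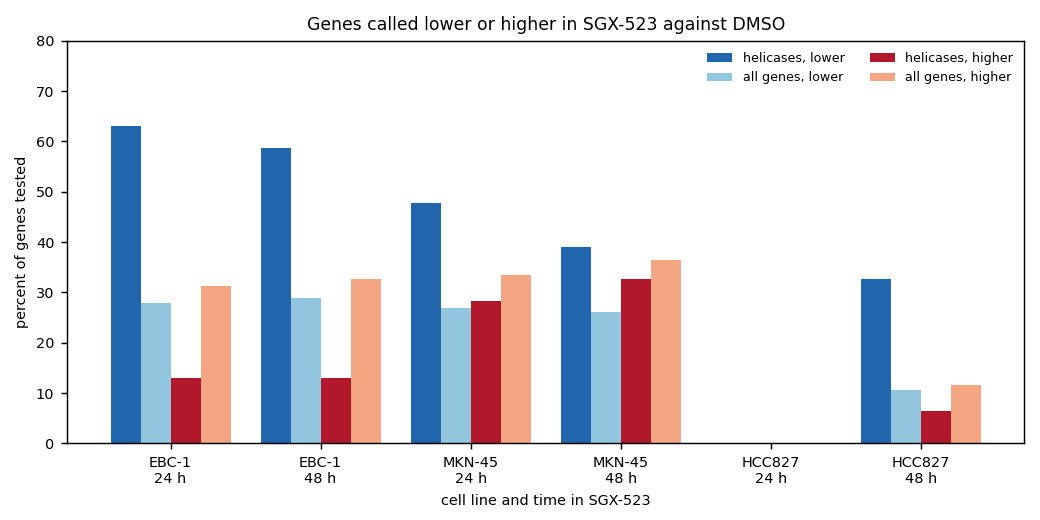
Percent of the 46 helicase genes tested (dark bars) and of all 12390 genes tested (light bars) that were called lower (blue) or higher (red) in SGX-523 against DMSO, by cell line and time. In EBC-1 at 24 h the bar for helicases that fell stands at 63%, against 28% for all genes; HCC827 at 24 h shows no bar for helicases because none was called.

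Between EBC-1 and MKN-45, which share no arrays, 19 genes fell in both at 24 h. They were 65.5% of those that fell in EBC-1 and 86.4% of those that fell in MKN-45. At 48 h 17 fell in both, 63% of the EBC-1 list and 94.4% of the MKN-45 list. DDX17, DDX19B, DDX60L and DHX40 rose in both lines at both times. The share of all genes that fell or rose in both lines was not counted. The overlap is therefore not read as particular to the helicases.

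The spiked-in control transcripts also differed between the arms, which bears on direction. Each of 45 such probe sets gave a difference of group means, SGX-523 minus DMSO. The median of these differences was 0.37 and 0.42 in EBC-1 at 24 h and 48 h. It was 0.35 and 0.25 in MKN-45, and 0.05 and -0.03 in HCC827. Their part in the result was not tested. Every array was then centred on its own median of these controls, so the shift applied need not equal those differences in size or sign. The median of all genes moved to -0.29 at 24 h and -0.28 at 48 h in EBC-1 and to -0.30 and -0.27 in MKN-45. In HCC827 it moved to 0.10 and 0.08. On that scale 36 helicases fell and 3 rose in EBC-1 at 24 h, beside 48.1% of all genes called lower and 16.1% higher, and 36 and 2 at 48 h, beside 47.6% and 16%. In MKN-45 32 fell and 4 rose at 24 h, beside 49.2% and 16.3%, and 28 and 4 at 48 h, beside 47.4% and 19.8%. Both counts of falls in MKN-45 include DDX43, which passed the filter through HCC827 only and lies near the lowest signals in MKN-45. The values below are therefore changes relative to the bulk of the array. The log2 ratio of 3′ to 5′ ACTB probe sets (3′ minus 5′ log2 signal) was 3.76 ± 0.0136 (SD, n = 3) in EBC-1 at 24 h. It was 3.89 ± 0.119 there at 48 h, against 3.36 ± 0.141 in DMSO. In MKN-45 it was 3.68 ± 0.0197 at 24 h and 4.16 ± 0.123 at 48 h, against 3.53 ± 0.0841 in DMSO. HCC827 gave 2.65 ± 0.658 at 24 h and 2.33 ± 0.0958 at 48 h, against 2.08 ± 0.071 in DMSO. The exact two-sided permutation p was 0.1 in each case, the smallest that 3 against 3 arrays allow; its part in the result was not tested.

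**Figure D2:**
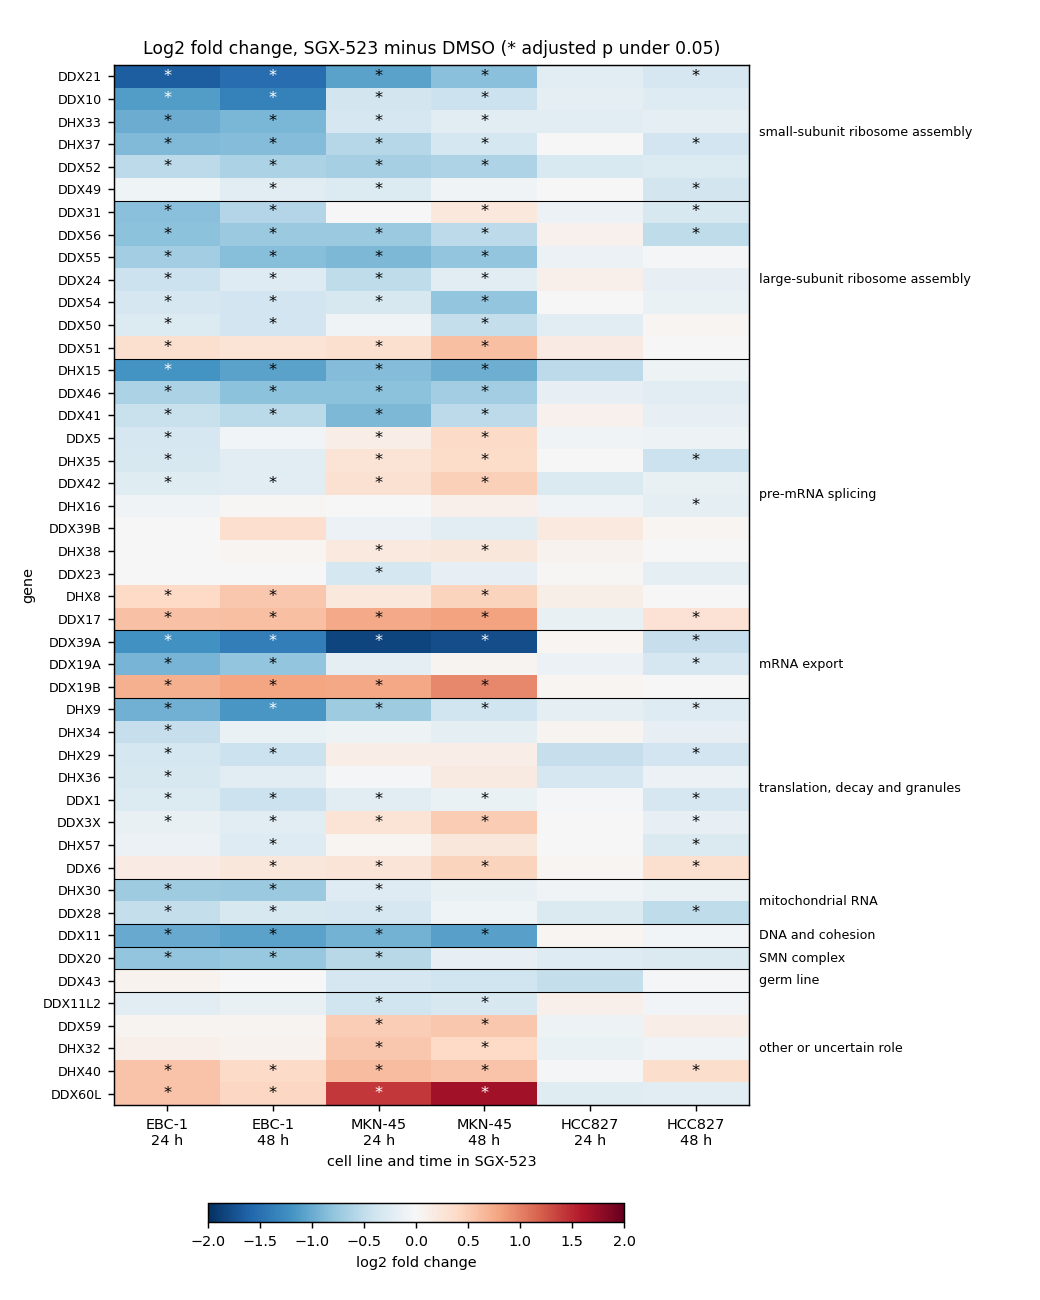
Log2 fold change of each of the 46 tested helicase genes (rows, grouped by role) in SGX-523 against DMSO in the 6 combinations of line and time (columns); blue is lower, red is higher, and a star marks an adjusted p under 0.05. The ribosome assembly rows are mostly blue in EBC-1 and MKN-45, DDX39A has the darkest blue and DDX60L the darkest red in MKN-45, and the HCC827 columns are pale.

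The genes for assembly of the small ribosomal subunit fell in both dependent lines. Of the 6 tested, 5 fell in EBC-1 at 24 h (median -0.94) and 6 at 48 h (median -0.89), and in MKN-45 6 fell at 24 h (median -0.47) and 5 at 48 h (median -0.39). In HCC827 0 of 6 were called at 24 h and 3 fell at 48 h (median -0.30). Of all genes, 28% and 28.9% were called lower in EBC-1 at 24 h and 48 h, 26.9% and 26.2% in MKN-45, and 0% and 10.7% in HCC827. The fall was led by DDX21, a nucleolar helicase that acts in ribosomal RNA transcription and processing.

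DDX21 read 10.39, 10.41 and 10.44 in EBC-1 at 24 h of SGX-523 and 10.54, 10.56 and 10.52 at 48 h, against 12.05, 12.05 and 12.08 in DMSO. The MKN-45 arrays read 10.76, 10.88 and 10.87 at 24 h and 11.02, 11.05 and 11.11 at 48 h, against 11.92, 11.90 and 11.89 in DMSO. The HCC827 arrays read 12.10, 12.11 and 11.59 at 24 h and 11.84, 11.79 and 11.82 at 48 h, against 12.15, 12.11 and 12.20 in DMSO. All treated arrays of EBC-1 and MKN-45 lay more than any spread within a group below their DMSO arrays, and at 24 h in HCC827 the groups overlapped. The differences were -1.65 ± 0.0785 and -1.52 ± 0.0785 in EBC-1 (adjusted p = 2.77e-15 and 1.17e-14), which leaves 0.319 and 0.349 of the DMSO signal. They were -1.07 and -0.84 in MKN-45 (adjusted p = 1.39e-11 and 1.02e-09). HCC827 gave -0.22 and -0.33, the second of them called (adjusted p = 0.211 and 0.003). Both other DDX21 probe sets fell too in EBC-1 and MKN-45, by values between -2.09 and -1.01.

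DDX10, needed for early processing of the small-subunit precursor, read 7.01, 7.03 and 7.10 in EBC-1 at 24 h and 6.63, 6.92 and 6.84 at 48 h, against 8.11, 8.20 and 8.16 in DMSO. Its MKN-45 values were 6.37, 6.41 and 6.33 at 24 h and 6.27, 6.37 and 6.32 at 48 h, against 6.73, 6.72 and 6.79 in DMSO. The groups did not overlap in either line, but the step was larger in EBC-1. There it was -1.11 ± 0.0964 at 24 h and -1.36 at 48 h (adjusted p = 2.8e-10 and 5.94e-12), against -0.37 and -0.43 in MKN-45 (adjusted p = 0.0016 and 0.000423).

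DHX33, a nucleolar DEAH protein linked to ribosomal DNA transcription, had the same shape. It read 7.17, 7.24 and 7.43 in EBC-1 at 24 h and 7.34, 7.40 and 7.33 at 48 h, against 8.24, 8.27 and 8.30 in DMSO. MKN-45 arrays gave 8.52, 8.60 and 8.45 at 24 h and 8.62, 8.73 and 8.56 at 48 h, against 8.81, 8.91 and 8.85 in DMSO. The fall was by 0.99 and 0.91 in EBC-1 (SE 0.0962, adjusted p = 2.18e-09 and 8.85e-09) and by 0.33 and 0.22 in MKN-45 (adjusted p = 0.00443 and 0.0492), so in MKN-45 at 48 h it sat at the edge of the threshold. DHX37, which in yeast and human cells releases the U3 small nucleolar RNA, was at -0.88 and -0.87 in EBC-1 and at -0.57 and -0.35 in MKN-45. DDX52, whose yeast counterpart acts in the same particle, was at -0.53 and -0.64 in EBC-1 and at -0.66 and -0.61 in MKN-45. DDX49 moved least of this group: -0.09 and -0.22 in EBC-1 and -0.27 and -0.07 in MKN-45, with calls at 48 h in EBC-1 and at 24 h in MKN-45. Spiked-control centring gave -0.42 and -0.57 in EBC-1 and -0.62 and -0.40 in MKN-45, each called lower. DDX47 read 2.13 to 2.66 on all 27 arrays by its own probe set, below the filter. A probe set shared by DDX47 and APOLD1 fell by 0.62 and 0.65 in EBC-1 and by 0.52 and 0.54 in MKN-45 at 24 h and 48 h.

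Helicases of the large subunit fell as well. Of 7 tested, 6 fell and 1 rose in EBC-1 at 24 h (median -0.43), and 6 fell at 48 h (median -0.39). In MKN-45 4 fell and 1 rose at 24 h (median -0.33), and 5 fell and 2 rose at 48 h (median -0.48). In HCC827 0 were called at 24 h and 2 fell at 48 h. The shares of all genes called lower are those given for the small subunit. DDX18 and DDX27, which belong to this group, had no probe set of their own in the table and are not analysed here.

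DDX55, which works on the large-subunit precursor, read 7.91, 7.79 and 7.75 in EBC-1 at 24 h and 7.72, 7.68 and 7.59 at 48 h, against 8.46, 8.55 and 8.54 in DMSO. Values in MKN-45 were 7.70, 7.59 and 7.50 at 24 h and 7.80, 7.61 and 7.72 at 48 h, against 8.57, 8.45 and 8.47 in DMSO. Every treated array was below every DMSO array in both lines, and by a similar step. The differences were -0.70 and -0.86 in EBC-1 (SE 0.0808, adjusted p = 4.24e-08 and 1.19e-09) and -0.90 and -0.79 in MKN-45 (adjusted p = 5.25e-10 and 5.64e-09), while HCC827 gave -0.12 and -0.04, neither called. DDX54, whose yeast counterpart is also a large-subunit factor, was at -0.33 and -0.39 in EBC-1. The MKN-45 arrays read 7.49, 7.74 and 7.56 at 24 h and 7.14, 7.25 and 6.99 at 48 h, against 8.01, 7.997 and 7.75 in DMSO. It was -0.33 there at 24 h and -0.79 at 48 h (adjusted p = 3.64e-07), the later value well below the earlier.

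DDX31 separated the lines. It read 6.40, 6.48 and 6.63 in EBC-1 at 24 h and 6.71, 6.74 and 6.78 at 48 h, against 7.32, 7.39 and 7.28 in DMSO. Its MKN-45 values were 7.20, 7.34 and 7.24 at 24 h and 7.44, 7.57 and 7.44 at 48 h, against 7.31, 7.27 and 7.22 in DMSO. In EBC-1 it fell by 0.83 and 0.59 (adjusted p = 3e-09 and 7.99e-07), was at -0.01 in MKN-45 at 24 h and rose there by 0.22 at 48 h (adjusted p = 0.0247). With arrays centred on the spiked controls the MKN-45 values were -0.35 at 24 h, called lower, and -0.11 at 48 h, not called. At 48 h 1 of its other probe sets was called lower in MKN-45, at -0.91. DDX56 was at -0.82 and -0.74 in EBC-1 and at -0.74 and -0.53 in MKN-45, and DDX24 at -0.43 and -0.25 in EBC-1 and at -0.50 and -0.21 in MKN-45; all 8 values were called. DDX51 went the other way, at 0.31 and 0.27 in EBC-1 (called at 24 h) and at 0.33 and 0.60 in MKN-45 (both called). Its other 2 probe sets were called lower in EBC-1, at -0.88 and -0.87 at 24 h, so the direction of DDX51 in EBC-1 depends on the probe set. DDX51 on the spiked-control scale was at -0.01 in EBC-1 at 24 h and at -0.02 and 0.27 in MKN-45, none of them called.

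Among the 12 splicing helicases there was no common direction. In EBC-1 6 fell and 2 rose at 24 h (median -0.15), and 4 fell and 2 rose at 48 h (median -0.02). In MKN-45 4 fell and 5 rose at 24 h (median 0.07), and 3 fell and 6 rose at 48 h (median 0.16). In HCC827 0 were called at 24 h, and 2 fell and 1 rose at 48 h (median -0.12). Of all genes, 28% and 28.9% were lower and 31.2% and 32.7% higher in EBC-1 at 24 h and 48 h. In MKN-45 26.9% and 26.2% were lower and 33.4% and 36.4% higher, and in HCC827 at 48 h 10.7% and 11.6%. These counts are not read as particular to the splicing helicases. DHX15, DDX46 and DDX41 fell in both lines at both times, and DDX17 rose.

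DHX15, which takes the spent spliceosome apart and also serves the ribosome, read 9.50, 9.52 and 9.48 in EBC-1 at 24 h and 9.54, 9.68 and 9.65 at 48 h, against 10.71, 10.69 and 10.70 in DMSO. MKN-45 arrays gave 9.82, 9.86 and 9.85 at 24 h and 9.82, 9.79 and 9.58 at 48 h, against 10.69, 10.71 and 10.74 in DMSO. Its HCC827 values were 11.27, 11.22 and 9.95 at 24 h and 11.21, 11.27 and 11.22 at 48 h, against 11.31, 11.31 and 11.37 in DMSO. The treated arrays of EBC-1 and MKN-45 fell clear of DMSO, and the odd value at 9.95 belongs to the HCC827 array that stood apart. The differences were -1.20 and -1.08 in EBC-1 (SE 0.185, adjusted p = 3.9e-06 and 1.59e-05) and -0.87 and -0.98 in MKN-45 (adjusted p = 0.000233 and 5.14e-05). In HCC827 they were -0.52 and -0.10, neither called.

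DDX41, a spliceosome component, read 8.08, 8.05 and 8.10 in EBC-1 at 24 h and 8.05, 7.91 and 7.96 at 48 h, against 8.53, 8.55 and 8.48 in DMSO. Values in MKN-45 were 7.10, 6.94 and 6.97 at 24 h and 7.31, 7.42 and 7.40 at 48 h, against 7.87, 7.97 and 7.86 in DMSO. It fell by 0.44 and 0.55 in EBC-1 (SE 0.0884, adjusted p = 0.000109 and 7.17e-06) and by 0.90 and 0.52 in MKN-45 (adjusted p = 2.6e-09 and 1.27e-05). The MKN-45 arrays were lowest at 24 h. DDX46, which helps the U2 particle settle on the branch site, was at -0.63 and -0.83 in EBC-1 and at -0.82 and -0.70 in MKN-45. DHX8, which releases the finished mRNA, rose in EBC-1 by 0.40 and 0.53 and in MKN-45 at 48 h by 0.45, and was at 0.22 in MKN-45 at 24 h, not called. On the spiked-control scale DHX8 was not called in any of these 4 comparisons, with values between -0.13 and 0.18.

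**Figure D3:**
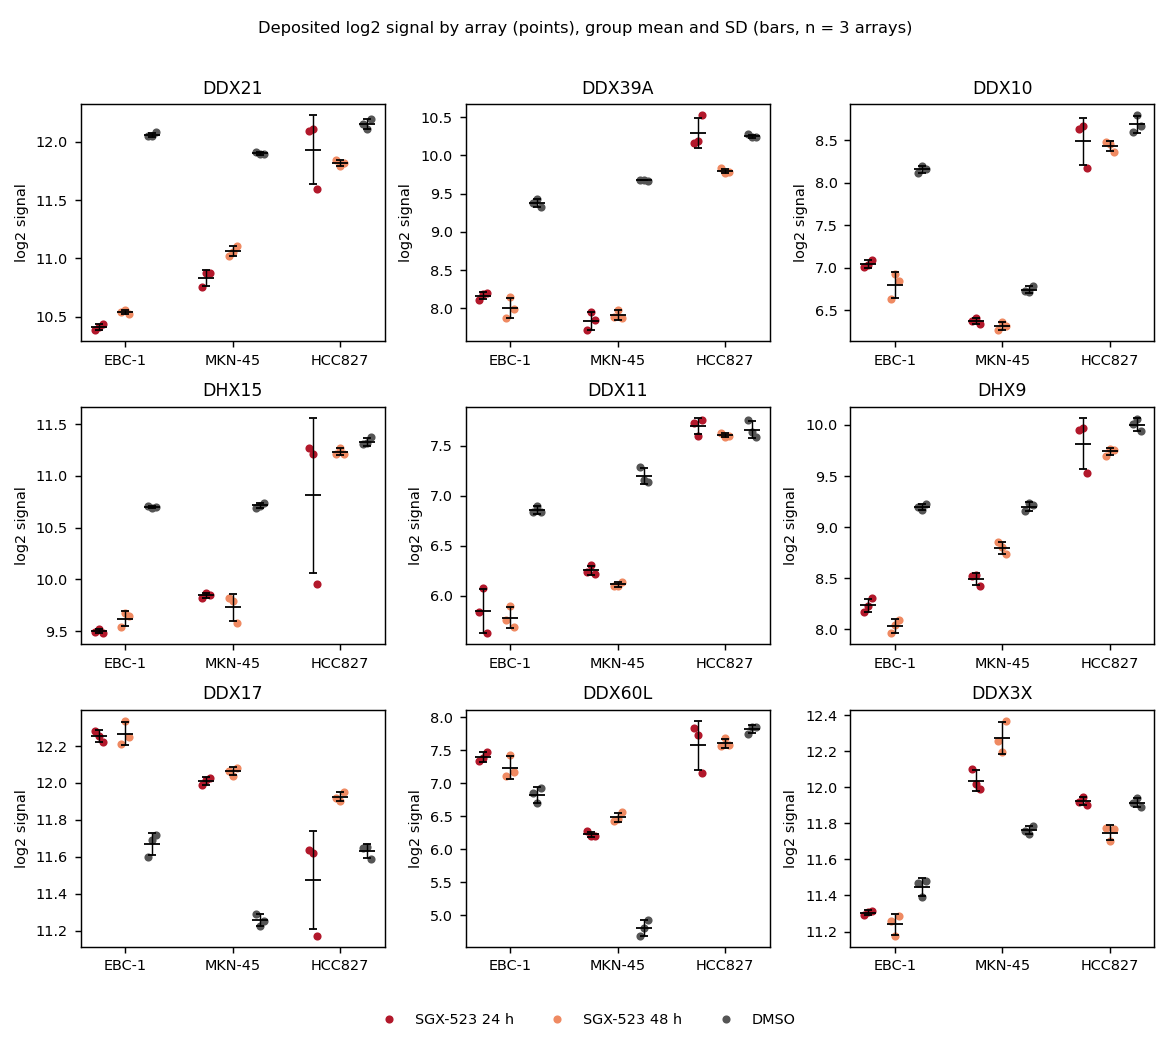
Deposited log2 signal of 9 helicase genes on each of the 27 arrays (points), with group mean and SD (bars, n = 3 arrays); SGX-523 at 24 h (dark red), SGX-523 at 48 h (orange) and DMSO (grey) in each line. DDX21, DDX39A, DDX10, DHX15, DDX11 and DHX9 sit below DMSO in EBC-1 and MKN-45, DDX17 and DDX60L above it, and DDX3X lies below DMSO in EBC-1 and above it in MKN-45; 1 dark red point in HCC827 often lies away from the other 2.

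DDX17 and DDX5 are close paralogs that act in both transcription and splicing. They did not move together in EBC-1, while both rose in MKN-45. DDX17 read 12.28, 12.26 and 12.22 in EBC-1 at 24 h and 12.21, 12.34 and 12.25 at 48 h, against 11.60, 11.69 and 11.72 in DMSO. The MKN-45 arrays read 11.99, 12.02 and 12.03 at 24 h and 12.06, 12.04 and 12.08 at 48 h, against 11.29, 11.22 and 11.25 in DMSO. The HCC827 arrays read 11.64, 11.62 and 11.17 at 24 h and 11.92, 11.90 and 11.95 at 48 h, against 11.65, 11.65 and 11.59 in DMSO. The treated arrays were the higher ones in EBC-1 and MKN-45 at both times and in HCC827 at 48 h. The rise was 0.58 and 0.60 in EBC-1 (SE 0.0722, adjusted p = 1.29e-07 and 8.28e-08), 0.75 and 0.81 in MKN-45 (adjusted p = 1.71e-09 and 4.59e-10) and 0.29 in HCC827 at 48 h (adjusted p = 0.0042). In EBC-1 and MKN-45 it also passed the test on the spiked-control scale, at 0.25 to 0.48.

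DDX5 read 11.96, 11.97 and 11.97 in EBC-1 at 24 h and 12.22, 12.29 and 12.24 at 48 h, against 12.30, 12.32 and 12.28 in DMSO. Its MKN-45 values were 12.04, 12.05 and 12.06 at 24 h and 12.29, 12.25 and 12.35 at 48 h, against 11.89, 11.89 and 11.95 in DMSO. It thus fell in EBC-1 at 24 h (-0.33, adjusted p = 2.61e-05) and was at -0.05 at 48 h, while it rose in MKN-45 by 0.14 and 0.39 (adjusted p = 0.0445 and 3.47e-06). On the spiked-control scale the MKN-45 values were -0.21 at 24 h, called lower, and 0.06 at 48 h, not called. The EBC-1 values were then -0.66 and -0.40, both called lower.

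The export helicases held both the deepest fall and one of the most even rises. DDX39A, a paralog of the export helicase DDX39B that loads export factors onto mRNA, read 8.11, 8.19 and 8.20 in EBC-1 at 24 h and 7.88, 8.15 and 7.99 at 48 h, against 9.38, 9.44 and 9.32 in DMSO. MKN-45 arrays gave 7.71, 7.95 and 7.85 at 24 h and 7.89, 7.98 and 7.87 at 48 h, against 9.68, 9.68 and 9.67 in DMSO. Its HCC827 values were 10.17, 10.20 and 10.53 at 24 h and 9.83, 9.78 and 9.78 at 48 h, against 10.28, 10.24 and 10.24 in DMSO. The treated and DMSO arrays were far apart in both dependent lines, and apart at 48 h in HCC827. In MKN-45 the differences of -1.84 ± 0.0793 and -1.77 (adjusted p = 4.45e-16 and 8.15e-16) leave 0.279 and 0.294 of the DMSO signal. In EBC-1 they were -1.21 and -1.38 (adjusted p = 1.36e-12 and 1e-13), and in HCC827 0.05 and -0.46, the second of them called (adjusted p = 0.745 and 0.000159). Its other probe set fell in the same 5 comparisons.

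DDX39B itself is hard to read here. Its own probe set read 5.40 to 6.29 on the EBC-1 and MKN-45 arrays and was not called in any comparison with DMSO, with differences between -0.23 and 0.33. After centring on the spiked controls it was called lower in MKN-45, at -0.47 and -0.56, and was not called in EBC-1. A further 7 probe sets are shared with a readthrough transcript that contains DDX39B. Of these, 6 were called lower in EBC-1 at 24 h (-0.98 to -0.52) and 6 at 48 h (-1.14 to -0.42). In MKN-45 6 were called lower at 24 h (-0.90 to -0.35) and 7 at 48 h (-1.22 to -0.38), while 0 of 7 were called in HCC827 at either time by limma adjusted over all kept probe sets.

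DDX19A and DDX19B, neighbours on chromosome 16 with 0 protein-coding genes between them, encode near-identical helicases that strip export factors from mRNA at the nuclear pore. DDX19A read 6.65, 6.71 and 6.88 in EBC-1 at 24 h and 7.01, 6.94 and 6.70 at 48 h, against 7.63, 7.65 and 7.76 in DMSO. Values in MKN-45 were 7.26, 7.23 and 7.37 at 24 h and 7.50, 7.51 and 7.52 at 48 h, against 7.35, 7.47 and 7.56 in DMSO. It fell in EBC-1 by 0.93 and 0.79 (SE 0.0821, adjusted p = 3.78e-10 and 5.93e-09), and in MKN-45 the groups overlapped (-0.17 and 0.05, neither called). Spiked-control centring gave -0.52 and -0.28 in MKN-45, both called lower.

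DDX19B went up in both lines. It read 5.90, 5.77 and 5.80 in EBC-1 at 24 h and 5.97, 5.85 and 5.86 at 48 h, against 5.35, 5.12 and 4.84 in DMSO. The MKN-45 arrays read 5.92, 5.76 and 5.85 at 24 h and 5.96, 6.03 and 6.11 at 48 h, against 5.18, 5.16 and 4.89 in DMSO. No treated array overlapped DMSO. The rise was 0.72 and 0.79 in EBC-1 (SE 0.124, adjusted p = 1.9e-05 and 4.75e-06) and 0.77 and 0.96 in MKN-45 (adjusted p = 7.5e-06 and 2.5e-07), against 0.04 and -0.00 in HCC827. These signals lie near the array medians. A probe set annotated to both genes was at 0.06 and -0.08 in EBC-1 and at 0.06 and 0.08 in MKN-45, called in neither, and how the probes divide the 2 transcripts was not tested.

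**Figure D4:**
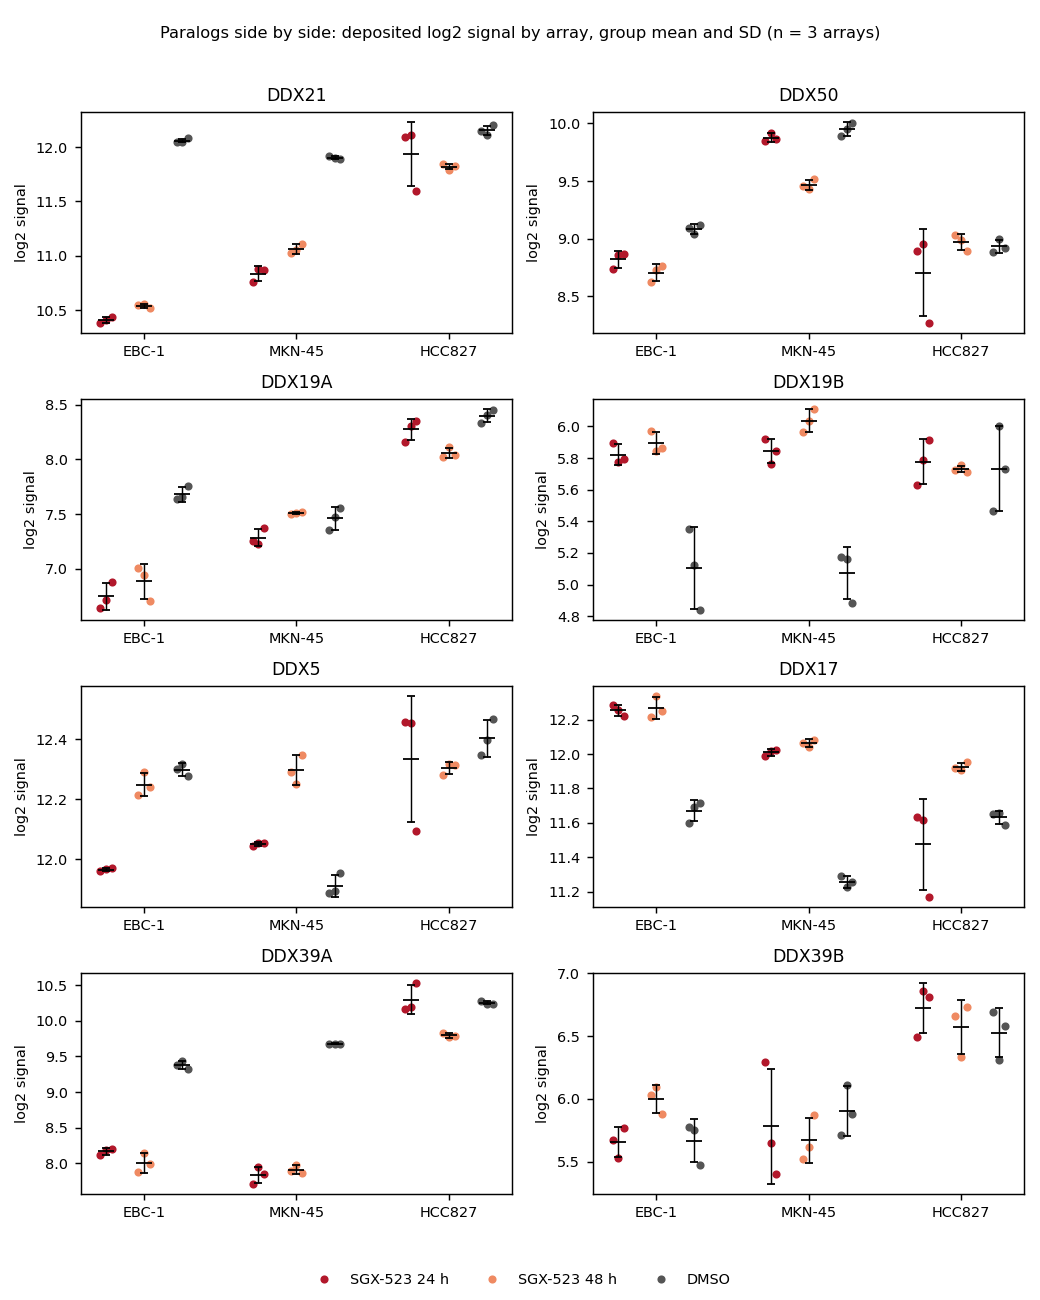
Deposited log2 signal by array (points) with group mean and SD (n = 3 arrays) for 4 paralog pairs, each pair on a row; SGX-523 at 24 h (dark red), SGX-523 at 48 h (orange), DMSO (grey). DDX21 falls further than DDX50, DDX19A falls in EBC-1 while DDX19B rises, DDX17 rises while DDX5 differs by line, and DDX39A falls while the single-gene probe set of DDX39B overlaps DMSO in most groups.

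DDX21 and DDX50 form another pair of neighbours, on chromosome 10 with 0 protein-coding genes between them, and both proteins are nucleolar. DDX50 read 8.74, 8.86 and 8.86 in EBC-1 at 24 h and 8.63, 8.73 and 8.76 at 48 h, against 9.10, 9.04 and 9.12 in DMSO. Its MKN-45 values were 9.85, 9.92 and 9.86 at 24 h and 9.46, 9.43 and 9.52 at 48 h, against 9.89, 9.95 and 10.01 in DMSO. It fell by 0.27 and 0.38 in EBC-1 (SE 0.106, adjusted p = 0.0332 and 0.00294), was at -0.07 in MKN-45 at 24 h and fell there by 0.48 at 48 h (adjusted p = 0.000309). The 24 h value in MKN-45 was -0.42 on the spiked-control scale, called lower. DDX21 over the same comparisons was at -1.65, -1.52, -1.07 and -0.84.

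The 250 bases before the RefSeq start of these neighbours and of DDX39A are shown because members that lie side by side moved differently. They are from GRCh38.p14 and written 5′ to 3′ on the gene's strand. Capitals mark CCGGAAG, the core bound by ETS-family factors, or its reverse complement CTTCCGG.
DDX21, chr10:68955920-68956169, plus strand: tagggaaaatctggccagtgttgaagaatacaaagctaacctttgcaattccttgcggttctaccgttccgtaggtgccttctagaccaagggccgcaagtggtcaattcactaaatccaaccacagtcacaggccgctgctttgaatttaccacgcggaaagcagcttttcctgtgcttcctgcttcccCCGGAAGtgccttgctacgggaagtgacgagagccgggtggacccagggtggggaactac
DDX50, chr10:68901065-68901314, plus strand: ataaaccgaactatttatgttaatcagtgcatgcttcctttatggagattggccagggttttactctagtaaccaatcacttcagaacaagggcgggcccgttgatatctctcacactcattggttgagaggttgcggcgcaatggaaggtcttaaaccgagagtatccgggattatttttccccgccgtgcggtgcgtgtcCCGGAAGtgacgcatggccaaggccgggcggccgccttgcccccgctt
DDX19A, chr16:70346653-70346902, plus strand: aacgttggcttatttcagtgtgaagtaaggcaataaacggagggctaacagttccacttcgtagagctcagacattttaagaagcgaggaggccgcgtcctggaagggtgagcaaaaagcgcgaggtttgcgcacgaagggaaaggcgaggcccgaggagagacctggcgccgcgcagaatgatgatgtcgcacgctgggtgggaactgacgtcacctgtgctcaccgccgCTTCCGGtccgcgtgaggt
DDX19B, chr16:70294527-70294776, plus strand: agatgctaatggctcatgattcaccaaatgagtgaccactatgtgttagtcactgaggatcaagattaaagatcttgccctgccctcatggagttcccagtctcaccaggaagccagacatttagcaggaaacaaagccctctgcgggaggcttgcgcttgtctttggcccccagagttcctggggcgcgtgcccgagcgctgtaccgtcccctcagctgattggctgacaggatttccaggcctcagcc
DDX39A, chr19:14419384-14419633, minus strand: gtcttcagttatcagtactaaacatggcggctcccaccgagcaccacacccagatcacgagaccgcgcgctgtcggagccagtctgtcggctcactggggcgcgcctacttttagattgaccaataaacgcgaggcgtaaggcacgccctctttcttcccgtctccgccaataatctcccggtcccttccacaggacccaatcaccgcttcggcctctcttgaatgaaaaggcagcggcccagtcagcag
The match stands once in DDX21, DDX50 and DDX19A and in neither of the other two stretches.

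Promoters were found in the RefSeq table for 46 of all 50 members. These include the untested DDX4, DDX25, DDX47 and DDX53, so they are not the 46 tested genes. Over whole promoter windows, from 250 bases before to 50 after the start and on both strands, CCGGAAG stood in 19 of these 46 (41.3%). It stood in 18.5% of the 10125 promoters of tested genes found there and in 10.3% of all 35116 promoters. CACGTG, the E-box, stood in 8 of 46 (17.4%), against 9.9% of tested genes and 7.26% of all promoters. In EBC-1 at 24 h CCGGAAG stood in 13 of the 27 promoters of helicases that fell, in 1 of 6 of those that rose and in 4 of 9 of those not called. In MKN-45 at 24 h it stood in 6 of 18, in 3 of 13 and in 9 of 11, so the helicases that fell did not hold the largest share there. In the same order, at 48 h it stood in 11 of 24, 1 of 6 and 6 of 12 in EBC-1. In MKN-45 at 48 h it stood in 6 of 15, 5 of 15 and 7 of 12. It stood in 5 of the 14 promoters of helicases that fell in all 4 comparisons and in 0 of 4 of those that rose. The remaining members, untested ones included, held it in 14 of 28. These matches describe the letters and no binding was measured. DDX11L2, DDX49, DDX52 and DHX33 had no entry in that table.

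Helicases of translation, decay and RNA granules fell in EBC-1 and divided in MKN-45. Of 8 tested, 6 fell in EBC-1 at 24 h (median -0.30), and 5 fell and 1 rose at 48 h (median -0.25). In MKN-45 2 fell and 2 rose at each time, with medians of -0.00 and 0.16. In HCC827 0 of 8 were called at 24 h, and 5 fell and 1 rose at 48 h (median -0.22). The shares of all genes are those given for the splicing helicases. DHX9, which unwinds structured RNA in transcription and translation, read 8.17, 8.22 and 8.30 in EBC-1 at 24 h and 7.96, 8.05 and 8.09 at 48 h, against 9.20, 9.17 and 9.22 in DMSO. MKN-45 arrays gave 8.52, 8.53 and 8.43 at 24 h and 8.86, 8.80 and 8.74 at 48 h, against 9.15, 9.23 and 9.22 in DMSO. The treated arrays lay below DMSO in both lines. It came to -0.96 and -1.16 in EBC-1 (SE 0.0803, adjusted p = 1.32e-10 and 3.35e-12) and to -0.71 and -0.40 in MKN-45 (adjusted p = 3.4e-08 and 0.000107). With the mean of its probe sets the MKN-45 value at 48 h was -0.35, not called (limma adjusted p = 0.0578). DHX36, a helicase that resolves G-quadruplexes and is paired here with DHX9, was at -0.32 in EBC-1 at 24 h (adjusted p = 0.0217), and its other 3 values, between -0.23 and 0.18, were not called. Centred on the spiked controls, DHX36 was also called lower in EBC-1 at 48 h (-0.58) and in MKN-45 at 24 h (-0.39). It was not called in MKN-45 at 48 h (-0.14). DDX1, part of the tRNA ligase complex, fell in all 4 comparisons by 0.13 to 0.43.

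DDX3X, a helicase of translation initiation, moved in opposite directions in the 2 dependent lines. It read 11.29, 11.31 and 11.32 in EBC-1 at 24 h and 11.26, 11.18 and 11.28 at 48 h, against 11.47, 11.39 and 11.48 in DMSO. Values in MKN-45 were 12.10, 12.02 and 11.99 at 24 h and 12.25, 12.19 and 12.37 at 48 h, against 11.76, 11.74 and 11.79 in DMSO. The steps were small but clear of the spread: -0.14 and -0.21 in EBC-1 (SE 0.0413, adjusted p = 0.00466 and 0.000113) and 0.27 and 0.51 in MKN-45 (adjusted p = 2.94e-06 and 7.23e-11). On the spiked-control scale MKN-45 gave -0.07 at 24 h and 0.18 at 48 h, neither called. With the mean of its probe sets DDX3X was at 0.21 in MKN-45 at both times, not called (limma adjusted p = 0.167 and 0.166). DDX42, a partner of the U2 particle, showed the same split, at -0.24 and -0.23 in EBC-1 and at 0.31 and 0.48 in MKN-45, all called; on the spiked-control scale its MKN-45 values were -0.04 and 0.15, neither called. DHX35, found in the spliceosome, fell in EBC-1 at 24 h by 0.33 and was at -0.22 at 48 h, while it rose in MKN-45 by 0.27 and 0.36. The spiked-control scale gave -0.07 and 0.04 in MKN-45, neither called, and -0.66 and -0.57 in EBC-1, both called lower. Opposite calls in the 2 lines were thus held by DDX3X, DDX42, DDX5 and DHX35 at 24 h and by DDX3X, DDX42 and DDX31 at 48 h, and the rise in MKN-45 was not called on the spiked-control scale for any of them.

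DDX6, which gathers silenced mRNA in processing bodies, rose in MKN-45 by 0.26 and 0.45 and in EBC-1 at 48 h by 0.23. Its values on the spiked-control scale were -0.09 and 0.12 in MKN-45 and -0.12 in EBC-1 at 48 h, none of them called. The HCC827 arrays read 10.44, 10.46 and 9.92 at 24 h and 10.55, 10.56 and 10.53 at 48 h, against 10.27, 10.28 and 10.13 in DMSO. The 48 h arrays were the higher ones (0.32, adjusted p = 0.0138). Another DDX6 probe set was called lower there, at -0.58, so this direction depends on the probe set.

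DDX11, a DNA helicase that helps hold sister chromatids together, fell alike in both dependent lines by its brightest probe set. It read 5.84, 6.07 and 5.63 in EBC-1 at 24 h and 5.75, 5.90 and 5.69 at 48 h, against 6.83, 6.90 and 6.84 in DMSO. The MKN-45 arrays read 6.24, 6.31 and 6.21 at 24 h and 6.10, 6.10 and 6.14 at 48 h, against 7.29, 7.16 and 7.14 in DMSO. The differences of -1.01 and -1.08 in EBC-1 (SE 0.0876, adjusted p = 2.82e-10 and 7.62e-11) and of -0.94 and -1.08 in MKN-45 (adjusted p = 1.03e-09 and 7.34e-11) stand beside 0.03 and -0.06 in HCC827. DDX11 has close copies in the genome. Its other kept probe set gave 0.08 to 0.40, not called in EBC-1 or MKN-45, and 2 probe sets shared with the copy DDX12P did not move alike. One of the shared probe sets fell by 1.03 to 1.24. The other was at -0.15 and -0.12 in EBC-1 and at -0.00 in MKN-45 at 24 h, none of them called, and at -0.23 in MKN-45 at 48 h (limma adjusted p = 0.0303).

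DDX20, of the SMN complex that builds spliceosomal particles, read 7.04, 7.04 and 7.22 in EBC-1 at 24 h and 7.24, 6.89 and 7.25 at 48 h, against 7.85, 7.91 and 7.89 in DMSO. Its MKN-45 values were 6.86, 6.72 and 6.80 at 24 h and 7.19, 7.27 and 7.07 at 48 h, against 7.43, 7.29 and 7.30 in DMSO. It fell in EBC-1 by 0.78 and 0.75 and in MKN-45 at 24 h by 0.55, and was at -0.17 in MKN-45 at 48 h, not called (adjusted p = 0.275). That last value was -0.49 on the spiked-control scale, called lower. DHX30 and DDX28, which serve RNA and ribosomes of the mitochondrion, fell in EBC-1 at both times and in MKN-45 at 24 h. DHX30 was at -0.71 and -0.75 in EBC-1 and at -0.26 in MKN-45 at 24 h, and DDX28 at -0.47, -0.32 and -0.34. The other 2 DDX28 probe sets were not called in any of these 3 comparisons, at -0.04 to 0.16. In MKN-45 at 48 h DHX30 and DDX28 were called lower on the spiked-control scale, at -0.47 and -0.41.

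DDX60L had the largest rise of the family in MKN-45. It is a paralog of the antiviral helicase DDX60. It read 6.27, 6.20 and 6.21 in MKN-45 at 24 h and 6.42, 6.46 and 6.56 at 48 h, against 4.69, 4.81 and 4.93 in DMSO. In EBC-1 it read 7.33, 7.38 and 7.48 at 24 h and 7.11, 7.43 and 7.16 at 48 h, against 6.85, 6.70 and 6.92 in DMSO. Its HCC827 values were 7.84, 7.73 and 7.15 at 24 h and 7.56, 7.69 and 7.57 at 48 h, against 7.75, 7.86 and 7.86 in DMSO. Treated arrays lay above DMSO in MKN-45 and EBC-1, but all 3 DMSO values of MKN-45 lay below the array median. The rise was 1.42 ± 0.122 and 1.68 in MKN-45 (adjusted p = 2.63e-10 and 1.03e-11) and 0.57 and 0.41 in EBC-1 (adjusted p = 0.000236 and 0.00537). HCC827 gave -0.25 and -0.22, neither called. On the spiked-control scale the MKN-45 values were 1.07 and 1.35 and passed the test, and the EBC-1 values were 0.25 and 0.06 and did not.

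DHX40, a DEAH protein whose role is little known, read 10.83, 10.78 and 10.82 in EBC-1 at 24 h and 10.59, 10.66 and 10.65 at 48 h, against 10.22, 10.27 and 10.25 in DMSO. MKN-45 arrays gave 10.75, 10.84 and 10.75 at 24 h and 10.72, 10.69 and 10.80 at 48 h, against 10.17, 10.16 and 10.17 in DMSO. The HCC827 arrays read 10.43, 10.38 and 10.11 at 24 h and 10.68, 10.71 and 10.71 at 48 h, against 10.32, 10.38 and 10.33 in DMSO. It rose in 5 of the 6 comparisons: by 0.56 and 0.39 in EBC-1 (SE 0.0563, adjusted p = 3.58e-09 and 1.36e-06), by 0.61 and 0.57 in MKN-45 (adjusted p = 9.19e-10 and 3.19e-09) and by 0.36 in HCC827 at 48 h (adjusted p = 4.93e-05). On the spiked-control scale its EBC-1 value at 48 h was 0.04 and was not called. Of the 5 genes with other or uncertain roles, 2 rose in EBC-1 at each time, and in MKN-45 4 rose and 1 fell at each time. The shares of all genes are those given for the splicing helicases, and counts of so few genes are not read against them.

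Of the 4 germ-line helicases, DDX43 alone passed the filter, and it did so through HCC827. This cancer and testis antigen was at or above the array median on 9 of 27 arrays, all of HCC827. It read 8.44, 8.47 and 7.09 in HCC827 at 24 h and 8.48, 8.39 and 8.40 at 48 h, against 8.36, 8.55 and 8.50 in DMSO, and 2.32 to 3.03 on the 18 other arrays. It was not called in any comparison with DMSO on the deposited scale. With spiked-control centring it was called lower in MKN-45, at -0.68 and -0.73. Those signals are near the lowest of the arrays, and the gene passed the filter through HCC827 only, so these calls are not read as a result. DDX4, DDX25 and DDX53 stayed below the array median, DDX25 at 3.73 to 4.30 in MKN-45 with SGX-523 and at 3.12 to 3.36 in MKN-45 with DMSO, untested.

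In HCC827 helicases were called at 48 h only. At 24 h 0 of 46 helicases were called by limma, beside 0.0323% of all genes, and 13 had an unadjusted p under 0.05. Without replicate 3 of that group the count was again 0, beside 0.161% of all genes. It was 14, all lower, when replicate 2 was left out, with replicate 3 then 1 of 2 treated arrays, beside 21.6% of all genes (14.9% lower). At 48 h 15 fell and 3 rose, beside 22.2% of all genes (10.7% lower and 11.6% higher), and the helicase median was -0.17 against 0.01 over all genes. Without replicate 3 of HCC827 at 24 h, an array this comparison does not contain but whose spread it shares, 26 fell and 3 rose, beside 37.5% of all genes. In a fit of HCC827 alone 7 fell and 1 rose, given here without the share of all genes called. With arrays centred on the spiked controls 7 fell and 3 rose, beside 3.19% of all genes called lower and 11.3% higher.

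The largest falls at 48 h were those of DDX28, DDX56 and DDX39A. DDX28 read 8.51, 8.30 and 8.32 at 48 h, against 8.95, 8.86 and 8.84 in DMSO (-0.51 ± 0.0914, adjusted p = 0.000228). DDX56, a large-subunit factor, read 9.33, 9.25 and 9.34 at 48 h, against 9.82, 9.87 and 9.75 in DMSO (-0.51, adjusted p = 0.000492). In all 3 genes every 48 h array was below every DMSO array. DHX35 was at -0.44, DHX37 at -0.38 and DDX49 at -0.37, each called. With the mean of its probe sets DDX28 was at -0.21, not called (limma adjusted p = 0.0656), and likewise DHX40 at 0.29 (0.19). In the limma fit of HCC827 alone DDX56, DHX35, DDX17 and DDX6 were not called (adjusted p = 0.057, 0.0596, 0.139 and 0.187).

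Between 24 h and 48 h few helicases moved in EBC-1. There 2 fell and 1 rose (11.1% of all genes called, 6.08% lower and 4.99% higher): DHX40 at -0.17, DDX1 at -0.15 and DDX5 at 0.28. With the replicate number as a block in limma 0 fell and 2 rose, DDX1 and DHX40 being lost (adjusted p = 0.0551 and 0.0698). Both were also lost in many of the fits that left out 1 array. The DDX5 call was lost with the mean of its probe sets or the spiked controls (limma adjusted p = 0.114 and 0.0794). Without replicate 3 of HCC827 at 24 h the count was 11, beside 24% of all genes. In MKN-45 2 fell and 11 rose (24.3% of all genes, 9.35% lower and 14.9% higher), and without that array the count was 24, beside 39.7%. DDX54 was at -0.46 and DDX50 at -0.41, and DDX20, DDX41 and DHX9 at 0.38, 0.38 and 0.30, so several genes that had fallen at 24 h lay nearer to DMSO at 48 h. The DDX20 call was lost with a pseudocount of 64, the mean of its probe sets or the spiked controls (limma adjusted p = 0.0723, 0.0698 and 0.0583). That of DHX9 was lost with the mean of its probe sets (limma adjusted p = 0.144). In HCC827 10 fell and 3 rose (26.5% of all genes, 10.7% lower and 15.8% higher), led by DDX56 at -0.59, DDX39A at -0.50 and DHX35 at -0.43, and by DDX17 at 0.45, DHX40 at 0.40 and DDX6 at 0.27. Those values use the array that stood apart; without it the count was 19, with 17 lower and 2 higher, beside 28.8% of all genes.

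The test of the difference between responses set each dependent line against HCC827. In EBC-1 the response was lower than in HCC827 for 21 helicases and higher for 5 at 24 h (51.6% of all genes called, 23.4% lower and 28.2% higher), and lower for 15 and higher for 5 at 48 h (48.7%, 24.2% lower and 24.5% higher). In MKN-45 it was lower for 14 and higher for 10 at 24 h (52.7%, 22.3% lower and 30.4% higher), and lower for 9 and higher for 20 at 48 h (51.1%, 21.5% lower and 29.6% higher). With spiked-control centring the split for EBC-1 was 33 and 0 at 24 h, beside 49.2% of all genes lower and 11.3% higher, and 31 and 0 at 48 h, beside 45.1% and 8.93%. For MKN-45 it was 29 and 2 at 24 h, beside 49.8% and 11.7%, and 21 and 4 at 48 h, beside 44.2% and 12.5%. The median of all genes in these 4 differences was then -0.42, -0.38, -0.41 and -0.36. Wide gaps on the low side were those of DDX39A, DDX21, DDX10 and DDX11, and on the high side that of DDX60L. For DDX39A the MKN-45 response lay 1.89 below that of HCC827 at 24 h, a difference of -1.89 ± 0.11 (adjusted p = 6.6e-13). For DDX21 the EBC-1 response minus that of HCC827 was -1.43 (adjusted p = 8e-11) at 24 h and -1.18 at 48 h. DDX60L gave 1.67 and 1.89 for MKN-45 minus HCC827.

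EBC-1 and MKN-45 also differed from each other. The EBC-1 response was lower for 14 helicases and higher for 3 at 24 h (42.1% of all genes called, 23.8% lower and 18.3% higher), and lower for 21 and higher for 2 at 48 h (49%, 29.4% lower and 19.6% higher). Without replicate 3 of HCC827 at 24 h the counts were 25 and 30, beside 54.3% and 60.9% of all genes. DDX10 fell further in EBC-1 at 48 h, with a difference between the responses of -0.93 (adjusted p = 3.54e-06). The difference was -0.76 and -0.84 for DDX19A and -0.82 for DDX31 at 24 h. DDX39A fell further in MKN-45 (EBC-1 minus MKN-45 0.63 and 0.39), as did DDX41 at 24 h (0.46) and DDX54 at 48 h (0.40, not called with a pseudocount of 64 or on the spiked-control scale). DDX23, of the early spliceosome, was at 0.01 in EBC-1 and fell by 0.36 in MKN-45 at 24 h, a difference of 0.37 (adjusted p = 0.0243). That call was lost under quantile normalization and on the spiked-control scale (limma adjusted p = 0.0584 and 0.053). With the spiked controls DDX23 was called lower in both lines at 24 h, at -0.32 in EBC-1 and -0.71 in MKN-45.

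**Figure D5:**
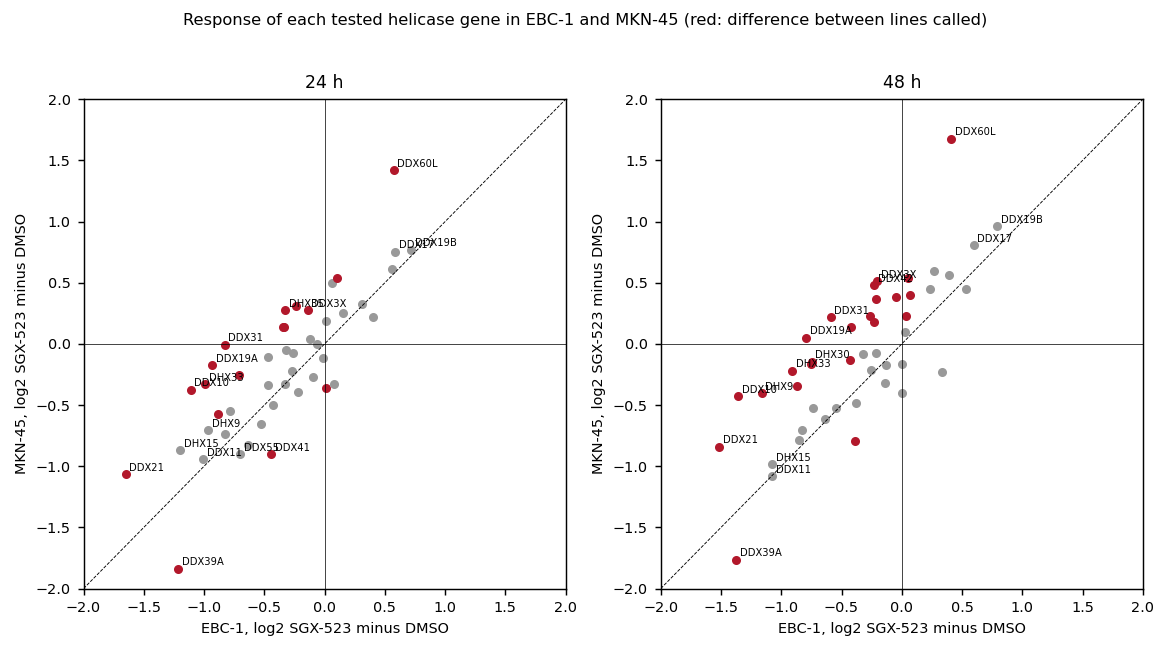
Log2 fold change (SGX-523 minus DMSO) of each of the 46 tested helicase genes in EBC-1 (x axis) and MKN-45 (y axis) at 24 h (left) and 48 h (right); red points are genes whose responses differed between the lines by the limma test of the difference, and the dashed line marks equal responses. Most red points lie above the line, where the EBC-1 response was lower than that of MKN-45, while DDX39A, DDX41 and DDX23 (24 h) or DDX39A and DDX54 (48 h) lie below it.

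The lines also began from different levels. In DMSO, EBC-1 was lower than MKN-45 for 15 helicases and higher for 14, where 67.6% of all genes were called (34% lower and 33.6% higher). DDX60L was the most unequal: 6.85, 6.70 and 6.92 in EBC-1, against 4.69, 4.81 and 4.93 in MKN-45 (2.02 ± 0.122, adjusted p = 1.65e-13). DDX10 was higher in EBC-1 by 1.41 and DDX59, a helicase tied to ciliary signalling, by 1.13. DDX6 read 8.72, 8.76 and 8.74 in EBC-1, against 10.23, 10.14 and 10.20 in MKN-45 (-1.45, adjusted p = 4.28e-13). DHX35 and DDX50 were lower in EBC-1 too, at -0.88 and -0.86. DDX59 read 6.91, 6.83 and 6.67 in MKN-45 at 24 h and 6.79, 6.78 and 6.94 at 48 h, against 6.27, 6.27 and 6.37 in DMSO, and rose by 0.50 and 0.53. Centred on the spiked controls it was at 0.15 and 0.21 there, neither called.

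Where a gene had more than 1 kept probe set, the others often but not always gave the same call. Among genes whose brightest probe set was called, 34 of 51 other probe sets had the same call in EBC-1 at 24 h and 26 of 43 at 48 h. In MKN-45 it was 25 of 46 at 24 h and 20 of 48 at 48 h, and in HCC827 at 48 h 7 of 23. Opposite calls came from DDX51 in EBC-1 at 24 h, DHX57 in EBC-1 at 48 h (0.34 by both other probe sets), DDX31 in MKN-45 at 48 h and DDX6 in HCC827 at 48 h.

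Among 14 tested helicases under other names, 5 fell and 4 rose in EBC-1 at 24 h (median -0.23), and 8 fell and 4 rose at 48 h (median -0.31). In MKN-45 5 fell and 1 rose at 24 h (median -0.06), and 3 fell and 3 rose at 48 h (median -0.02). Of all genes, 28% and 28.9% were lower and 31.2% and 32.7% higher in EBC-1 at 24 h and 48 h. In MKN-45 26.9% and 26.2% were lower and 33.4% and 36.4% higher. The counts are not read as particular to this list. EIF4A3, of the exon junction complex, fell by 0.54 and 0.43 in EBC-1 and by 0.80 and 0.51 in MKN-45. EIF4A2, the less studied form of the initiation helicase, rose by 1.28 and 1.35 in EBC-1 and by 0.61 and 0.50 in MKN-45, while EIF4A1 was at -0.84 and -0.40 in EBC-1 and at -0.39 and 0.25 in MKN-45, all called. These 3 genes were followed through all 4 comparisons after their values were seen.

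Of 41 tested partners and regulators of the helicases, 25 fell and 7 rose in EBC-1 at each time, with medians of -0.27 and -0.39. In MKN-45 18 fell and 6 rose at 24 h (median -0.14), and 19 fell and 10 rose at 48 h (median -0.19). The shares of all genes are those given for the helicases under other names. ALYREF, the export adaptor that binds the DDX39 helicases, fell, with differences of -1.98 and -1.90 in EBC-1 and of -1.67 and -1.32 in MKN-45. PDCD4, an inhibitor of EIF4A, rose by 2.35 and 2.27 in EBC-1 and by 1.75 and 1.92 in MKN-45. In HCC827 0 of 41 partners were called at 24 h by limma, and at 48 h 12 fell and 4 rose, with ALYREF at -0.48 and PDCD4 at 0.79. Of all genes, 10.7% were lower and 11.6% higher in HCC827 at 48 h. RBM5, a G-patch protein that binds DHX15, rose in MKN-45 by 1.14 and 1.17, and was named after its values were seen.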

How the data were processed

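The authors deposited 1 log2 value per probe set and array. The only tool given, per the submitters' processing notes, is MAS5, whose role they do not state; how arrays were normalized is not given here. From the values, the HCC827 arrays seem to have been normalized apart. Control probe sets (102) were set aside. Probe sets that reached the array median on at least 3 of 27 arrays were kept (29694). Groups came from the titles. All tests across genes used limma 3.58.1 under R 4.3.3 (9 group means, eBayes with an intensity trend, two-sided, Benjamini-Hochberg over all genes tested within each of 16 comparisons). Single probe sets were tested in the same way over all kept probe sets. The members, role lists and tests were chosen with earlier results of these data known. Named members were those with the largest changes in each comparison, opposite calls, fixed paralog pairs and the top 2 of each list. The planned linear pseudocount of 16 was not needed, since the values were already log2. Samples with the same replicate number did not deviate together (27 pairs, correlations between -0.20 and 0.16, 5 above 0.1), so the number was not used for pairing. The method was tested on simulated data. Promoters and gene positions were matched by symbol or gene ID to RefSeq (GRCh38.p14); all 50 members matched a gene ID.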

Additional observations from a re-analysis of the deposited data

Results flagged for a closer look

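The following members responded differently in 2 lines by the limma test of the difference itself (adjusted p under 0.05, adjusted over all genes tested), and are given as the response in the first line minus that in the second, on the log2 scale. For EBC-1 minus HCC827 at 24 h, DDX21 was at -1.43, DDX39A at -1.26 and DDX11 at -1.04, while DDX60L was at 0.82, DDX17 at 0.74 and DDX19B at 0.67. For EBC-1 minus HCC827 at 48 h, DDX21 was at -1.18, DDX10 at -1.10 and DDX11 at -1.02, while DDX19B was at 0.79, DDX60L at 0.62 and DHX8 at 0.53. For MKN-45 minus HCC827 at 24 h, DDX39A was at -1.89, DDX41 at -0.996 and DDX11 at -0.98, while DDX60L was at 1.67, DDX17 at 0.91 and DDX19B at 0.73. For MKN-45 minus HCC827 at 48 h, DDX39A was at -1.31, DDX11 at -1.03 and DHX15 at -0.89, while DDX60L was at 1.89, DDX19B at 0.96 and DHX35 at 0.80. On the spiked-control scale the higher values for EBC-1 minus HCC827 were not called: at 24 h DDX60L was at 0.39, DDX17 at 0.31 and DDX19B at 0.24, and at 48 h DDX19B at 0.37, DDX60L at 0.20 and DHX8 at 0.11. For MKN-45 minus HCC827 at 24 h DDX19B was at 0.27 on that scale, not called.

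For EBC-1 minus MKN-45 at 24 h, DDX60L was at -0.85, DDX31 at -0.82 and DDX19A at -0.76, while DDX39A was at 0.63, DDX41 at 0.46 and DDX23 at 0.37. For EBC-1 minus MKN-45 at 48 h, DDX60L was at -1.27, DDX10 at -0.93 and DDX19A at -0.84, while DDX54 was at 0.40 and DDX39A at 0.39. With a pseudocount of 64 on the linear scale DDX60L at 24 h was at -0.20, not called (limma adjusted p = 0.19). The 24 h values against HCC827 contain the array of that line that stood apart.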

How the results depend on the processing

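Counts of helicases called stayed within 1.5 times of the reported value in all 16 comparisons under array median centring, quantile normalization, a pseudocount of 64 on the linear scale and the replicate block. With the replicate number as a block the counts in EBC-1 were 34 at 24 h and 32 at 48 h, in MKN-45 34 and 33, and in HCC827 0 and 17. For 48 h minus 24 h in EBC-1 the block gave 2, 0 lower and 2 higher, against 2 lower and 1 higher without it. At 48 h in HCC827 a separate fit per line gave 8, array weights 30 and centring on the spiked controls, chosen after seeing the data, 10. Between 48 h and 24 h in EBC-1, no filter gave 1, a strict filter 5, no intensity trend 1, a separate fit 11, array weights 10 and spiked controls 0. In MKN-45 a separate fit gave 21, the mean of probe sets 8, array weights 21 and spiked controls 7 (2 lower and 5 higher), and in HCC827 a separate fit gave 8. Spiked controls gave 31 for EBC-1 minus HCC827 at 48 h, and array weights 27 for EBC-1 minus MKN-45 at 24 h. The cause was not tested. The share of all genes called is not given beside these counts. They describe how many helicases were called in each setting and no more. DDX3X in MKN-45 at 24 h turned to -0.075 with the spiked controls. DDX6 in HCC827 turned to -0.14 at 48 h and to -0.0507 for 48 h minus 24 h with the mean of its probe sets.

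Leaving out 1 array at a time gave 30 to 36 helicases in EBC-1 at 24 h and 30 to 36 at 48 h, 32 to 39 and 30 to 38 in MKN-45, and 0 to 14 and 14 to 29 in HCC827. Between 48 h and 24 h it gave 1 to 11 in EBC-1, 7 to 24 in MKN-45 and 10 to 20 in HCC827. For the responses against HCC827 it gave 24 to 32 and 17 to 24 in EBC-1 and 22 to 31 and 26 to 33 in MKN-45. For EBC-1 minus MKN-45 it gave 14 to 25 and 19 to 30, and 26 to 32 in DMSO. The upper ends against DMSO in EBC-1 and MKN-45 came without replicate 3 of HCC827 at 24 h. Of all genes 67.6% and 70.1% were then called in EBC-1 and 68.4% and 70.6% in MKN-45. The rest of these ranges is given without that share. Signal near the array median limits DDX19B, DDX11 and DDX60L.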
